A study of Mus musculus with 2 samples.

Results

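ATF4 and the unfolded protein response were followed through 10 genes, Atf4, Ddit3, Xbp1, Trib3, Chac1, Asns, Psat1, Phgdh, Hspa5 and Herpud1. They were taken by symbol from the deposited expression values, and all 10 were found among 24354 genes. Expression was given as FPKM, which counts fragments per kilobase of transcript and scales them to the library, so levels can be set side by side between genes. The values came from mouse ESCs that were differentiating toward mesoderm, 1 library of control cells (Diff–CONT ESCs) and 1 library of inducible Ino80 knockout cells (Diff–iKO ESCs). INO80 is the ATPase of a chromatin remodeling complex. With 1 library per condition, no difference given here has a replicate check, and no p-value is given.

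Both lines were derived from blastocysts carrying the floxed Ino80 allele (Ino80 2f/2f), although the sample labels call the control genotype WT. The control line lacked CreER, and the knockout line carried CreER at the ROSA26 locus, which is active in nearly all cell types. Each condition was represented by 1 library, and the number of cell lines behind it is not given in the sources used here. Both lines were primed in serum, formed embryoid bodies (EBs) in KSR medium and were attached on day 4. From the next day both received BMP4 and 0.5 µM 4-OHTM, the tamoxifen metabolite that switches CreER on, for 7 days. The control cells were therefore exposed to 4-OHTM as well. The stranded mRNA libraries started from 1 µg of total RNA.

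Cells that accumulate unfolded protein in the endoplasmic reticulum (ER) respond through 3 membrane sensors. PERK phosphorylates eIF2α, which lowers general translation but favours translation of ATF4, and GCN2, PKR and HRI reach ATF4 through the same phosphorylation when amino acids are short, during viral infection or when heme is short. IRE1 splices the Xbp1 mRNA into the form that encodes the active factor, and ATF6 is cleaved into a factor that acts with XBP1 on ER chaperone genes. In early embryos and ESCs the ATF4 branch is best known for its ties to amino acid supply. FPKM per gene shows neither the translation of Atf4 nor the splicing of Xbp1.

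Ino80 went against the labels. Its FPKM was 8.90 in the Diff–CONT-labelled library and 10.3 in the Diff–iKO-labelled library, a log2 ratio of 0.21 (interval 0.11 to 0.31). FPKM per gene does not resolve the deleted exons, so this value does not check the deletion, and the libraries are named by their labels throughout. Where a pair of values is given, the Diff–CONT-labelled library comes first. The libraries also differed in sex-linked genes, with Xist at 0.0639 and 3.59 FPKM, Ddx3y at 4.07 and 1.89 FPKM and Eif2s3y at 2.80 and 1.10 FPKM in the Diff–CONT- and Diff–iKO-labelled libraries. Low FPKM values rose in steps of 1 fragment, from which about 27582487 and 21451454 fragments on genes were recovered, a ratio of 1.29. All intervals below are 95% intervals from the fragments of each gene and cover counting error only. Intervals of ratios were scaled by the fitted fragment totals of about 29981637 and 22389343, not by the fragments on genes.

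Markers of cell types differed widely between the libraries, and this stands beside every result that follows. The summed FPKM of 7 pluripotent cell markers was 441 in the Diff–CONT-labelled library and 2827 in the Diff–iKO-labelled library, and 7 of 7 were higher in the latter. Visceral endoderm markers summed to 205 and 7.14 FPKM (0 of 6 higher), and cardiomyocyte markers to 37.4 and 8.997 FPKM (0 of 5 higher). Parietal endoderm markers summed to 1518 and 2461 FPKM (5 of 6 higher), while mesenchyme markers summed to 1671 and 1592 FPKM (1 of 6 higher). Sums for endothelial markers were 48.2 and 66.1 FPKM (1 of 5 higher), for trophoblast giant cell markers 85.4 and 89.6 FPKM (4 of 5 higher), and for neural progenitor markers 94.9 and 93.4 FPKM (1 of 4 higher). In the endothelial, trophoblast, mesenchyme, parietal endoderm and neural lists 1 gene went against the others. These genes were picked out after their values were seen. Pecam1 had 16.2 and 53.9 FPKM, and the other 4 endothelial markers summed to 31.98 and 12.2 FPKM. Hand1 had 70.8 and 31.3 FPKM, and the other 5 trophoblast markers summed to 14.6 and 58.3 FPKM. Col1a1 had 880 and 1199 FPKM, while the other 5 mesenchyme markers were lower, among them Col3a1 at 386 and 187 FPKM. Lama1 had 30.5 and 22.8 FPKM in the parietal endoderm list, and Nes had 28.8 and 44.1 FPKM in the neural list. Sums cover all listed markers, and counts those whose mean FPKM reached 1. No listed marker was at 0 in either library. The part of cell makeup in the results was not tested, and in bulk RNA fewer cells of a type and less RNA per cell cannot be told apart.

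The stress genes spanned a wide range of levels. Hspa5 had the highest FPKM and Chac1 the lowest in both libraries, 152-fold apart in the Diff–CONT-labelled library and 179-fold apart in the Diff–iKO-labelled library. In the Diff–CONT-labelled library the order from high to low was Hspa5, Atf4, Phgdh, Asns, Psat1, Xbp1, Herpud1, Ddit3, Trib3 and Chac1. In the Diff–iKO-labelled library it was Hspa5, Atf4, Asns, Xbp1, Phgdh, Psat1, Ddit3, Herpud1, Trib3 and Chac1. Asns and Xbp1 thus stood above Phgdh and Psat1 in the second order, whereas Xbp1 stood below both and Asns between them in the first. Among neighbours in the order, the 95% counting intervals of single genes overlapped for Phgdh and Asns, for Asns and Psat1, and for Herpud1 and Ddit3 in the Diff–CONT-labelled library. They overlapped for Phgdh and Psat1, and for Ddit3 and Herpud1, in the Diff–iKO-labelled library. The ratio of such a pair was not tested.

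**Figure D1:**
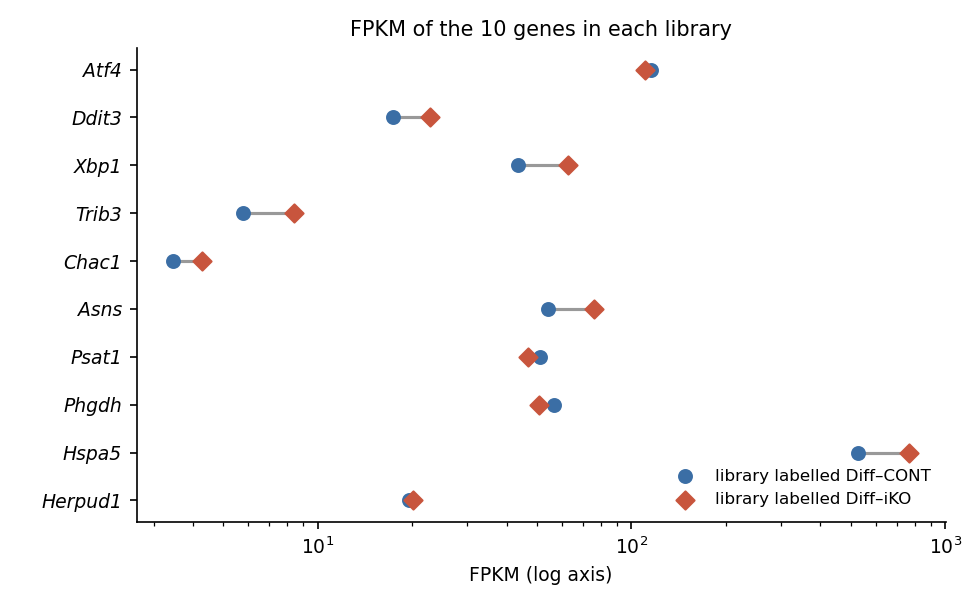
FPKM (log axis) of the 10 genes in the Diff–CONT-labelled library and the Diff–iKO-labelled library, with a grey line joining the values of each gene. Hspa5 lay highest, at 527 and 767 FPKM, and Chac1 lowest, at 3.47 and 4.28 FPKM.

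None of the 10 genes passed the 2-fold cut-off (FC ≥ 2 with FPKM ≥ 2 in at least 1 library) in either direction, which 6.73% of 12376 genes passed as higher and 8.39% as lower. None passed 1.5-fold either, which 14.9% of genes passed as higher and 17.6% as lower. All 10 reached FPKM ≥ 2 in both libraries, so none was lost to the filter. Within these limits 7 genes were higher and 3 lower in the Diff–iKO-labelled library, and their median log2 ratio of FPKM + 0.1 was 0.34. The median over the 13145 genes whose mean FPKM reached 1 was −0.01, with 49.3% of genes higher and the middle 50% of log2 ratios between −0.40 and 0.35. Shares of all genes given below refer to these 13145 genes. Counting intervals lay above 0 for 5 of the 10 genes, below 0 for 3 and across 0 for Chac1 and Herpud1. Since the interval excluded 0 in 77.9% of 11894 genes, an interval on one side of 0 was common at this depth.

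**Figure D2:**
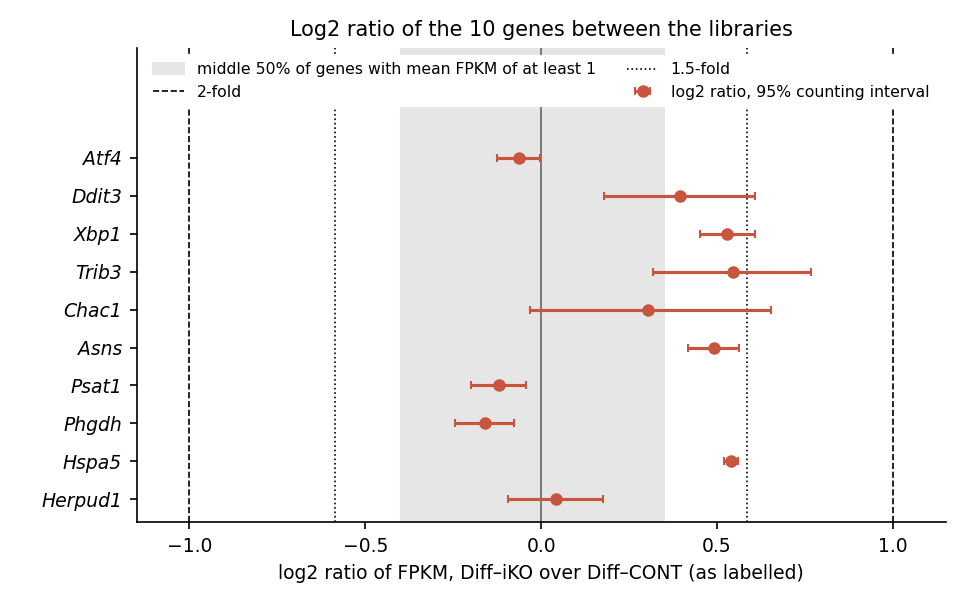
Log2 ratio of FPKM for each of the 10 genes, Diff–iKO-labelled library over Diff–CONT-labelled library, with 95% counting intervals as bars. Hspa5, Trib3, Xbp1 and Asns lay between 0.49 and 0.54, above the grey band that holds the middle 50% of all genes and below the 1.5-fold line. Ddit3, at 0.39, also lay above the band.

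The promoters of the 10 genes were searched for 4 DNA motifs, because ATF4, ATF6 and XBP1 are known to act through them. The windows were those of RefSeq on GRCm38.p6, from 250 bases before to 50 bases after each annotated start, and all 10 genes had a window (Psat1 had 2). The C/EBP-ATF response element (CARE) was searched as TGATGNAA, the unfolded protein response element (UPRE) as TGACGTG, the ER stress response element (ERSE) as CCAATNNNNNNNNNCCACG and ERSE-II as ATTGGNCCACG, on both strands. Of all 32851 windows, 3.97% held CARE, 2.01% UPRE, 0.119% ERSE and 0.0365% ERSE-II. A match is a description of these letters, not a site shown to be used.

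CARE occurred in the windows of 4 of the 10 genes, Asns, Trib3, Chac1 and Herpud1. The stretches of Asns at chr6:7693210-7693272 (minus strand), Trib3 at chr2:152344028-152344057 (minus strand) and Chac1 at chr2:119351009-119351096 (plus strand) are shown because these genes are ATF4 targets whose motif can be read directly, with the match on either strand in capitals.
Asns: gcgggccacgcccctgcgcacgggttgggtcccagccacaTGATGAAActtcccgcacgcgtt
Trib3: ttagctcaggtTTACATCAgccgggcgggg
Chac1: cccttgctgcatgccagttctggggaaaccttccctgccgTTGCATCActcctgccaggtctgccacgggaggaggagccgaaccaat
The match began 23 bases before the start of Asns on the strand of the gene. In Chac1 it began 193 bases before the start and in Trib3 14 bases after it, both on the opposite strand.

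Hspa5 held ERSE 65 bases and UPRE 157 bases before its start, and Herpud1 held ERSE-II 52 bases and CARE 112 bases before its start. Hspa5 at chr2:34771893-34772083 (plus strand) and Herpud1 at chr8:94386277-94386427 (plus strand) are shown because both belong to the ER stress response and carry different motifs. The matches are in capitals.
Hspa5: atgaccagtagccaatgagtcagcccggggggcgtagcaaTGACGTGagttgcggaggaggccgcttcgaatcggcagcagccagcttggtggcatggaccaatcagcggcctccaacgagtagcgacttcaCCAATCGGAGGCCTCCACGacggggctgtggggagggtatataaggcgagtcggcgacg
Herpud1: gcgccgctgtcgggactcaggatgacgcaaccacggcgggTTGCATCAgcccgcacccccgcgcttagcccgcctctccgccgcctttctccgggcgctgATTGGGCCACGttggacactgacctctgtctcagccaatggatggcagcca
None of the 4 motifs was found in the windows of Atf4, Ddit3, Xbp1, Psat1 and Phgdh, which says only that these letters are not in the windows. Distances and sides depend on the annotation: relative to the outermost GENCODE start, the CARE match of Asns and the ERSE match of Hspa5 lay after the start, and the CARE match of Trib3 lay before it. Genes with and without a match occurred at higher and at near-level ratios, as Xbp1 and Ddit3 held none at log2 ratios of 0.53 and 0.39, Atf4 held none at −0.06, and Herpud1 held CARE and ERSE-II at 0.04.

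**Figure D3:**
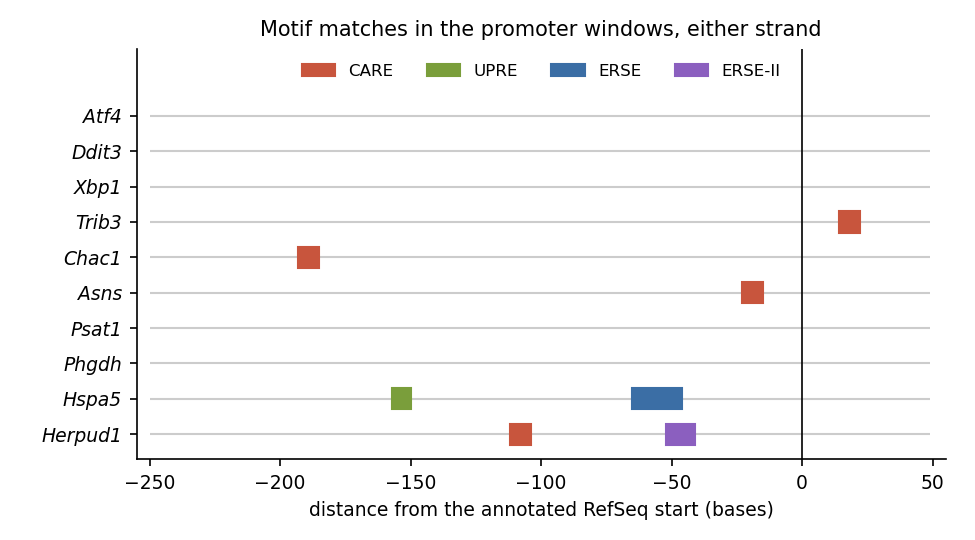
Position of motif matches in the RefSeq promoter windows of the 10 genes, in bases from the annotated start (0), with matches on either strand as coloured boxes. Asns, Trib3, Chac1 and Herpud1 held CARE, Hspa5 held UPRE and ERSE, Herpud1 also held ERSE-II, and the other 5 genes held none.

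Of the transcription factors, Atf4 itself was nearly level. Atf4 encodes the bZIP factor at which the eIF2α kinases converge, on chromosome 15 from 80255184 to 80257541 of GRCm38 (mm10). It had 115 FPKM in the Diff–CONT-labelled library and 110.2 FPKM in the Diff–iKO-labelled library, a log2 ratio of −0.06 (interval −0.12 to −0.0034). Of all genes, 54.3% had a higher ratio, which placed Atf4 near the middle. With both libraries scaled to the same sum of FPKM, the log2 ratio was −0.16. Its mRNA was abundant in both libraries, as only 4.12% and 4.92% of the 13145 genes had a higher FPKM.

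Ddit3, which encodes CHOP, a factor downstream of ATF4 that is linked to apoptosis, was higher. Its FPKM was 17.4 in the Diff–CONT-labelled library and 22.9 in the Diff–iKO-labelled library, 1.31-fold higher, with a log2 ratio of 0.39 (interval 0.18 to 0.61). The ratio of Ddit3 to Atf4 FPKM was 0.151 and 0.208 in the same order. Ddit3 lies on chromosome 10 from 127290774 to 127296288 and overlaps Mars, a tRNA synthetase gene on the opposite strand, by 68 bases. Mars had 49.4 and 67.1 FPKM, and since the strand setting of the counting is not given, reads in the shared bases cannot be assigned.

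Xbp1 encodes the factor of the IRE1 branch and lies on chromosome 11 from 5520659 to 5525893. It had 43.4 FPKM in the Diff–CONT-labelled library and 62.6 FPKM in the Diff–iKO-labelled library, 1.44-fold higher, with a log2 ratio of 0.53 (interval 0.45 to 0.61). Of all genes, 16.6% had a higher ratio. Total Xbp1 mRNA was therefore higher while Atf4 mRNA was not, and the Xbp1 to Atf4 ratio of FPKM was 0.377 and 0.568.

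Trib3 and Chac1 are read as effectors of ATF4 signaling. Trib3 encodes a pseudokinase that binds ATF4 and limits its activity, and lies on chromosome 2 from 152337422 to 152344032. Its FPKM was 5.77 in the Diff–CONT-labelled library and 8.41 in the Diff–iKO-labelled library, 1.46-fold higher, a log2 ratio of 0.54 (interval 0.32 to 0.77). Of all genes, 16.3% had a higher ratio. With a pseudocount of 1 the log2 ratio was 0.48.

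Chac1 encodes an enzyme that degrades glutathione. It had 3.47 FPKM in the Diff–CONT-labelled library and 4.28 FPKM in the Diff–iKO-labelled library, a log2 ratio of 0.30 (interval −0.03 to 0.65). Only about 150 and 139 fragments lay behind these values, and a difference was not detectable at this depth. Chac1 lies on chromosome 2 from 119351229 to 119354381, 18.66 kb from Ino80, with 0 annotated genes between them.

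The amino acid synthesis genes did not move as a group. Asns encodes asparagine synthetase and lies on chromosome 6 from 7675169 to 7693254. Its FPKM was 54.2 in the Diff–CONT-labelled library and 76.2 in the Diff–iKO-labelled library, 1.40-fold higher, with a log2 ratio of 0.49 (interval 0.42 to 0.56). Asns is a common readout of ATF4, and 18.2% of all genes had a higher ratio.

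Psat1 and Phgdh encode steps of serine synthesis from a glycolytic intermediate. Psat1, on chromosome 19 from 15904678 to 15947337, had 51.0 FPKM in the Diff–CONT-labelled library and 46.9 FPKM in the Diff–iKO-labelled library, a log2 ratio of −0.12 (interval −0.20 to −0.04). Phgdh, the first enzyme of the pathway, on chromosome 3 from 98313170 to 98339990, had 56.6 and 50.7 FPKM, a log2 ratio of −0.16 (interval −0.24 to −0.08). Both were slightly lower where Asns was higher. Under scaling to the same sum, the log2 ratios were −0.21 for Psat1, −0.25 for Phgdh and 0.40 for Asns. The Asns to Psat1 ratio of FPKM was 1.06 and 1.62, and the Asns to Phgdh ratio was 0.958 and 1.503.

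Phgdh and Psat1 have similar sequences elsewhere, with which reads could be shared. At 90% identity or more over at least 200 bases, the Phgdh transcript was matched by transcripts of 19 other genes, mostly processed pseudogenes. The closest was Gm7901, 98.7% identical over 1597 bases. Of these copies, Gm6756 and Gm8096 have deposited values, and both are listed at 0 in each library. For Psat1 there was 1 such gene, Gm12611, 91.0% identical over 1056 bases, and Psat1 also overlaps the pseudogene Gm3329 by 556 bases on the opposite strand. The other 8 genes had none. How the counting treated reads that fit several of these genes is not given in the sources used here.

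The ER chaperone and degradation genes diverged from each other. Hspa5 encodes BiP, the main ER chaperone of the Hsp70 family and the factor that holds the stress sensors inactive, and lies on chromosome 2 from 34771970 to 34777547. It had 527 FPKM in the Diff–CONT-labelled library and 767 FPKM in the Diff–iKO-labelled library, 1.45-fold higher, with a log2 ratio of 0.54 (interval 0.52 to 0.56). Of the 13145 genes, 0.822% and 0.563% had a higher FPKM, so Hspa5 was among the most abundant mRNAs in both libraries, and about 38301 and 41612 fragments lay behind its values.

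Herpud1 encodes a membrane protein of ER-associated degradation and lies on chromosome 8 from 94386438 to 94395377. Its FPKM was 19.6 in the Diff–CONT-labelled library and 20.2 in the Diff–iKO-labelled library, a log2 ratio of 0.04 (interval −0.09 to 0.18) that became −0.05 when both libraries were scaled to the same sum of FPKM. The ratio of Hspa5, whose window held ERSE, to Herpud1, whose window held ERSE-II and CARE, was 26.9 and 37.99. Hspa5 and Xbp1 kept a ratio of 12.1 and 12.2. Herpud1 overlaps the antisense gene Gm15890 by 535 bases.

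**Figure D4:**
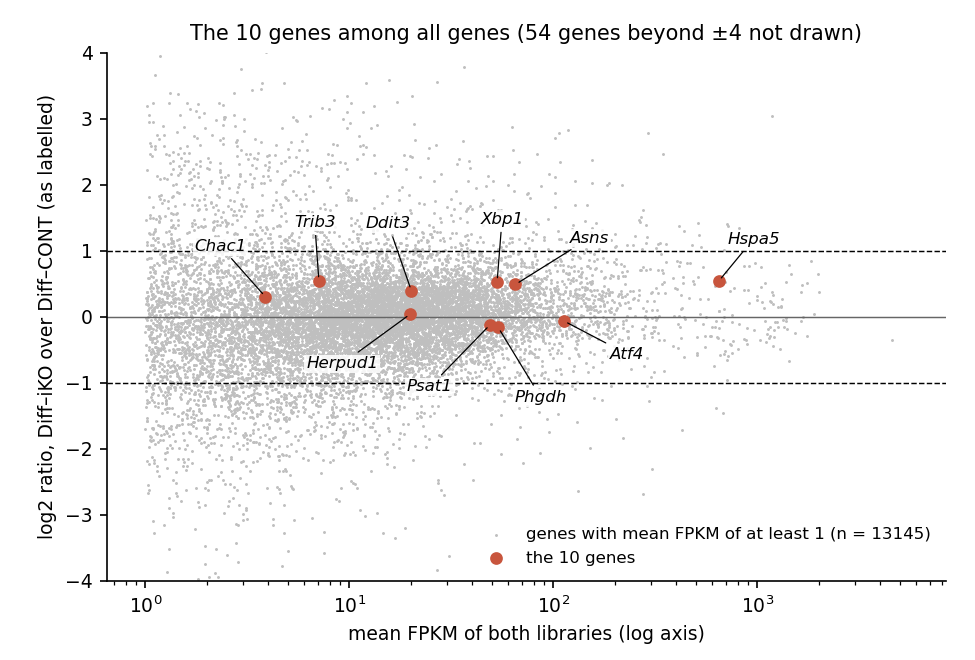
Log2 ratio of FPKM (Diff–iKO-labelled library over Diff–CONT-labelled library) against mean FPKM (log axis) for 13145 genes in grey, with the 10 stress genes in red and dashed lines at 2-fold. The 10 genes lie inside the 2-fold lines, and 54 genes beyond ±4 are not drawn.

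The rest of the response was read from 10 lists with 133 genes, none of which is among the 10 genes. Of the 131 genes whose mean FPKM reached 1, 107 (81.7%) were higher in the Diff–iKO-labelled library, and their log2 ratios of FPKM + 0.1 had a median of 0.34, against 49.3% and −0.01 over all genes. Past 2-fold, 8 of 130 genes (6.15%) were higher and 3 (2.31%) lower, beside 6.73% and 8.39% of all genes that reached the FPKM minimum. With both libraries scaled to equal sums, 3 (2.31%) were higher and 3 lower, beside 5.70% and 9.95% of all genes. Past 1.5-fold as deposited, 31 of the 130 (23.8%) were higher and 5 (3.85%) lower, beside 14.9% and 17.6% of all genes. With equal sums, 24 (18.5%) were higher and 8 (6.15%) lower past 1.5-fold, beside 12.0% and 21.1% of all genes. That scaling shifted every gene alike, so that over all genes 42.3% were higher with a median of −0.10, and counts under equal sums below are to be read beside these. Each list below is given by the same counts, and no list was tested.

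Upstream of ATF4 and XBP1, 11 of 12 stress sensors, eIF2α kinases and phosphatase subunits were higher, with a median of 0.47. None passed 2-fold, and 5 of 12 passed 1.5-fold as higher, beside 14.9% of all genes. Under equal sums 10 of 12 were higher, with a median of 0.38. Ern1, Atf6 and Ppp1r15a then fell under 1.5-fold, which 12.0% of all genes passed as higher. The genes of this list with the highest FPKM were Mbtps1, the protease that cleaves ATF6, at 87.1 and 109 FPKM, and Eif2s1, which encodes eIF2α, at 37.2 and 43.3 FPKM. The sensors and kinases were named for their roles after their values had been seen. Ern1, which encodes IRE1, had 4.24 and 6.60 FPKM, Atf6 had 10.9 and 16.7 FPKM, and Eif2ak3, which encodes PERK, had 12.99 and 18.4 FPKM. Of the other eIF2α kinases, Eif2ak1, which encodes HRI, had 18.4 and 24.9 FPKM, and Eif2ak2, which encodes PKR, had 7.96 and 9.40 FPKM. Eif2ak4, which encodes GCN2, the kinase that senses uncharged tRNA, was the 1 lower gene, at 11.7 and 10.05 FPKM with a log2 ratio of −0.22 (interval −0.33 to −0.11).

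Of 8 bZIP partners of ATF4, 6 were higher, with a median of 0.16. Under equal sums 4 of 8 were higher with a median of 0.070, and at a mean FPKM of at least 5 the median was 0.049. Nfe2l2, which encodes the antioxidant factor NRF2, had 28.9 and 44.4 FPKM, a log2 ratio of 0.62. Jun, a subunit of AP-1, had 31.9 and 25.5 FPKM, a log2 ratio of −0.32.

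ATF4 is known for genes of amino acid uptake, synthesis and tRNA charging, and each of these was read as a list. Of 10 amino acid transporters, 9 were higher, with a median of 0.51, and 3 passed 2-fold as higher, beside 6.73% of all genes. Slc7a3, a carrier of cationic amino acids, had 35.5 and 181 FPKM, a log2 ratio of 2.35 (interval 2.28 to 2.42). Slc7a5 and Slc3a2, whose products pair into a carrier of large neutral amino acids, had 37.3 and 75.7 FPKM and 70.6 and 141 FPKM, log2 ratios of 1.02 and 1.00. Both were under 2-fold with equal sums, and Slc3a2 also when scaled by the median of gene ratios. Slc38a2, a carrier of small neutral amino acids, had the highest mean of the list, at 106 and 170.4 FPKM.

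Synthesis enzymes were split. Of 14 amino acid and one-carbon synthesis enzymes, 8 were higher and 6 lower, with a median of 0.17, and 2 passed 1.5-fold in each direction. These counts are near those of all genes, of which 49.3% were higher, 14.9% passed 1.5-fold as higher and 17.6% as lower. Under equal sums 7 of 14 were higher, with a median of 0.079, while at a mean FPKM of at least 5 the median was 0.30. Glul, glutamine synthetase, had 95.2 and 55.01 FPKM, a log2 ratio of −0.79, and Shmt2, the mitochondrial enzyme that takes a one-carbon unit from serine, had 44.1 and 53.3 FPKM, a log2 ratio of 0.27. Both signs thus occurred here, as among Asns, Psat1 and Phgdh. Of 20 cytosolic tRNA synthetases, 16 were higher, with a median of 0.28 and none past 1.5-fold. Under equal sums 13 of 20 were higher, beside 42.3% of all genes. The most abundant were Qars (101 and 103 FPKM) and Gars (90.8 and 100.7 FPKM).

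The other ATF4 target genes held the widest spread, from −1.87 to 3.35 on the log2 scale of FPKM + 0.1. Of 12, 9 were higher, with a median of 0.27. Past 2-fold, 2 were higher and 3 lower, beside 6.73% and 8.39% of all genes. Under equal sums 6 of 12 were higher, with a median of 0.18. Gdf15, a secreted stress hormone, had 1.67 and 17.9 FPKM, a log2 ratio of 3.42 (interval 3.02 to 3.82). Cdkn1a, the cell cycle inhibitor p21 and also a p53 target, had 78.1 and 157 FPKM, a log2 ratio of 1.01 that was 0.91 with equal sums. Eif4ebp1, an inhibitor of cap-dependent translation, had 90.8 and 153 FPKM. On the lower side, Ddit4, an inhibitor of mTORC1 that also answers to hypoxia, had 83.1 and 36.4 FPKM, a log2 ratio of −1.19. Stc2, a secreted glycoprotein, had 10.2 and 3.91 FPKM, and Vldlr, a lipoprotein receptor, had 13.9 and 3.72 FPKM, with log2 ratios of −1.38 and −1.90.

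ER chaperones and foldases, the relatives of Hspa5, were higher in 17 of 18 genes, with a median of 0.44, and counting intervals lay above 0 for 17, beside 37.6% of all genes. Creld2, an ER-resident protein, passed 2-fold at 36.2 and 75.04 FPKM, a log2 ratio of 1.05 that was 0.96 with equal sums. Hsp90b1, the ER form of Hsp90, had 633 and 833 FPKM, and Calr, the calcium-binding lectin calreticulin, had 573 and 823 FPKM. Summed over the list, FPKM was 3499 in the Diff–CONT-labelled library and 4937 in the Diff–iKO-labelled library.

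For ER-associated degradation and translocation, the functions nearest to Herpud1, 14 of 18 genes were higher, with a median of 0.19. Past 1.5-fold, 2 genes were higher, beside 14.9% of all genes. At a mean FPKM of at least 5 the median was 0.11. Under equal sums the median was 0.093 and 10 of 18 were higher, beside 42.3% of all genes. Vcp, the ATPase that extracts proteins from the ER membrane, had 165 and 214 FPKM, and Ssr3, a subunit of the translocon-associated complex, had 165 and 157 FPKM. Neither passed 1.5-fold.

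**Figure D5:**
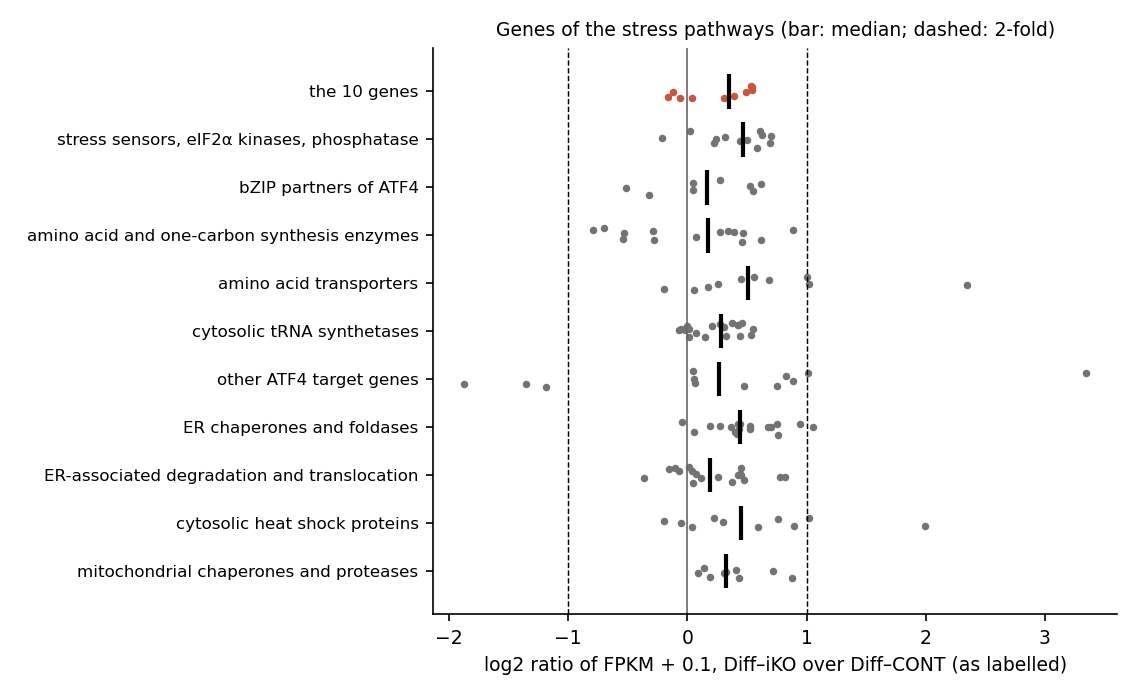
Log2 ratio of FPKM + 0.1 (Diff–iKO-labelled library over Diff–CONT-labelled library) for each gene of the stress pathway lists with mean FPKM ≥ 1, with the 10 genes in red, a black bar at each median and dashed lines at 2-fold. Each list median lies above 0, from 0.16 for the bZIP partners to 0.51 for the amino acid transporters.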

How the data were processed

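Poly(A) RNA of 2 libraries of differentiating mouse ESCs was analysed. The authors deposited FPKM values per gene, 1 column per library, and 0 other columns of values were present. Per the submitters' processing notes, STAR 2.7.9a, Cufflinks 2.2.1 and Cuffnorm were used with mm10. Annotation, strand setting and library scaling are not given in the sources used here.

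The ratio of the libraries was taken per gene without a pseudocount. List medians used log2(FPKM + 0.1) over genes whose mean FPKM reached 1. No test was run, because each condition had 1 library. The 10 genes, the lists and the alternatives were chosen with earlier results of these data known. Named genes were the 10 genes, Ino80, the genes of each list past 2-fold with FPKM ≥ 2, and the 2 genes of each list with the highest mean FPKM. Exceptions whose values had already been seen were the sex-linked genes, Pecam1, Hand1, Col1a1, Col3a1, Lama1, Nes, Hspa1a, Ppp1r15a, the stress sensors and kinases and the genes with ERSE. Overlapping genes and gene copies were named from the annotation.

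Depth was recovered from steps of FPKM in genes with 1 RefSeq-linked transcript of at least 1000 bases. Of the low values, 85.5% and 85.3% lay within 0.2 of a whole multiple, against 40% by chance. Fragments per gene used the shortest such transcript, so they and the exact (Clopper-Pearson) 95% intervals are approximate for genes with several transcripts. Coordinates are from GENCODE vM21 (GRCm38) and transcript copies were searched with blastn 2.17.0+. Scripts used Python 3.11.15 with scipy 1.17.1, pandas 2.3.3, matplotlib 3.10.9 and numpy 2.4.6, and were tested on simulated data. The alternatives were other pseudocounts, filters on FPKM and 3 other scalings.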

Additional observations from a re-analysis of the deposited data

How the results depend on the processing

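None of the 10 genes passed 2-fold or 1.5-fold under any other filter, pseudocount or scaling that was tried. Scaling both libraries to the same sum of FPKM shifted every log2 ratio by −0.09. The median of the 10 genes was then 0.25 in place of 0.34, with 6 of 10 higher, since Herpud1 became −0.05. Under the same scaling the medians were 0.41 for amino acid transporters, 0.19 for tRNA synthetases, 0.35 for ER chaperones and foldases, 0.093 for ER-associated degradation, 0.35 for cytosolic heat shock proteins and 0.23 for mitochondrial chaperones. With a mean FPKM of at least 5, the median was 0.30 for amino acid and one-carbon synthesis enzymes (0.17 at a mean of at least 1) and 0.26 for cytosolic heat shock proteins (0.45), because fewer genes entered. With a pseudocount of 1 the cytosolic heat shock median was 0.36, and with no filter the median of the other ATF4 target genes was 0.48 in place of 0.27, with 1 more gene. The other 102 alternatives were for medians and for counts of the 10 genes past a fold. These medians moved by no more than the counting error typical of a single gene in the list, which is not the error of the median itself. The counts of the 10 genes past a fold did not move, and counts of higher genes in a list were not part of these alternatives. No library could be left out and no paired analysis was possible because each condition had 1 library. No symbol occurred in more than 1 place, so summing by symbol changed nothing. Depth limits Chac1 most, with about 150 and 139 fragments, and no setting replaces the missing replicates.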

Other observations

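Most of the listed chaperones outside the ER were also higher in the Diff–iKO-labelled library, mostly by less than 2-fold, and no test was run. All 9 mitochondrial chaperones and proteases were higher in the Diff–iKO-labelled library, with none past 2-fold, and the median log2 ratio of FPKM + 0.1 was 0.32. Under scaling to the same sum of FPKM 8 of 9 were higher. Over all genes, 49.3% were higher as deposited and 42.3% under that scaling. Hspd1 and Hspe1, the mitochondrial chaperonin and its partner, had 226 and 299.7 FPKM and 143 and 261 FPKM in the Diff–CONT- and Diff–iKO-labelled libraries. Of 10 cytosolic heat shock proteins, 8 were higher, with a median of 0.45 that was 0.26 at a mean FPKM of at least 5, which Hspa1a and Hspa1b do not reach. Hspb1, a small heat shock protein, had 87.3 and 348 FPKM, a log2 ratio of 2.00, and Hspa1b, a form of Hsp70, had 1.26 and 2.65 FPKM, a log2 ratio of 1.08 that was 0.98 when both libraries were scaled to the same sum of FPKM. The most abundant genes of the list were Hspa8 at 976 and 1139.5 FPKM and Hsp90ab1 at 1663 and 1597 FPKM. Pluripotent cell markers differed as well, at 441 and 2827 FPKM in sum, and their part in these values was not tested.

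The ERSE motif found in the Hspa5 window was read across all RefSeq windows, after its value in Hspa5 had been seen. Of 16 genes with ERSE and a mean FPKM of at least 1, 15 were higher in the Diff–iKO-labelled library, with a median of 0.48. Without Hspa5, 14 of 15 were higher, with a median of 0.43. Over all 9976 genes with a window and this mean, 50.02% were higher and the median was 0.00. The stress lists held 8 of these genes, Calr, Canx, Creld2, Derl3, Dnajc3, Hsp90b1, Pdia6 and Syvn1, of which 8 were higher with a median of 0.64. The other 7 were Acacb, Adcy3, Alg12, Hnrnpa3, Pan2, Spats2l and Zfp57, of which 6 were higher with a median of 0.25, and Spats2l was lower at 11.8 and 6.44 FPKM. Of 252 genes with CARE, 55.6% were higher with a median of 0.11, and of 324 genes with UPRE, 47.5% were higher with a median of −0.03. Without the 10 genes, 54.8% of 248 genes with CARE and 47.4% of 323 genes with UPRE were higher, with medians of 0.10 and −0.03. Of 8 genes with ERSE-II, 4 were higher, and 3 of 7 without Herpud1. These counts are descriptions of 1 library against 1 library, and no test was run on them.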
